A study of Gallus gallus with 12 samples.

Results

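Granulosa cells surround the oocyte of the hen's follicle, and their identity rests on a small set of transcription factors. The 7 factors described here are FOXL2, GATA4, GATA6, WT1, NR5A1, NR5A2 and NR2F2, taken by gene symbol from a table of 12470 named genes. All 7 were in the table, and all 7 passed the filter on low counts that left 11195 genes for testing. The samples were whole ovarian follicles of 6 laying hens (Gallus gallus) aged 12 months. Each hen gave 1 Pre-recruitment follicle, from before entry into the graded series of yolk-filled follicles, and 1 Pre-ovulatory F5 follicle, a member of that series. The 12 libraries thus form 2 stages of 6 with the same birds in each. No treatment, strain or genotype was used in the grouping.

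FOXL2 is a forkhead factor that maintains ovarian fate, and in the chick embryo it marks the female gonad. GATA4 and GATA6 are zinc finger proteins that bind GATA sites in the promoters of gonadal genes, and WT1 is a zinc finger protein needed to form the gonad. NR5A1 and NR5A2 are closely related nuclear receptors that bind the same DNA element and drive genes of steroid synthesis. NR5A2 is needed in mouse granulosa cells for ovulation. NR2F2, a nuclear receptor of the COUP family, is known in mammalian gonads from theca, stromal and interstitial cells rather than from granulosa cells.

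Libraries held between 20628640 and 29082988 counts of named genes before recruitment and between 28044247 and 40887647 in F5. Levels are given as CPM, the counts of a gene scaled to a common library size, with TMM factors. They are not corrected for gene length, so each gene is compared between libraries and not with another gene. The samples are whole follicles, in which fewer cells of a type and less RNA per cell cannot be told apart. Markers of some other cell types moved with the stage. Of all genes tested, 32.9% were called higher in F5 and 32.6% lower, the background for the marker counts. Smooth muscle markers rose in 8 of 8 tested genes (7 with library totals), with a summed level of 3174.51 to 7424 CPM before recruitment and 12291.9 to 25924.9 CPM in F5. DES, 1 of the 8, lost its call in 13 of 23 alternative fits. Stromal markers rose in 6 of 7, with sums of 20597.3 to 30126.7 and 39223 to 50981.9 CPM. PDGFRA, 1 of the 6, lost its call in 9 of 23 alternative fits, among them library totals (edgeR adjusted p = 0.336). Oocyte markers fell in 6 of 7, from sums of 55.4 to 104 CPM to sums of 1.7 to 25.2 CPM, and 2 of the 7 were at 0 counts in some F5 library. No tested marker of the other types was at 0 in any library. Granulosa markers outside the 7 factors fell in 6 of 8 tested genes (median log2 change -1.45), and their sum went from 1222.61 to 1560.04 CPM down to 220.514 to 394.725 CPM. AMH was the largest part of that sum before recruitment (mean 691 CPM, against 30.4 CPM in F5). Of the other 2 markers, KITLG rose 1.32-fold (edgeR adjusted p = 0.00874, but 0.244 with library totals). INHA was called in neither direction. In the main fit, 1 of 8 leukocyte markers and 0 of 3 blood markers were called. Of 6 theca interna markers 1 was higher and 3 were lower, and of 8 endothelial markers 4 were higher and 1 was lower. The part of these cell types in the changes of the 7 factors was not tested.

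In F5 follicles 4 of the 7 factors were called lower and 2 higher. FOXL2, GATA4, WT1 and GATA6 were lower, NR5A2 and NR2F2 were higher, and NR5A1 passed the test in neither direction. Changes were called by edgeR's quasi-likelihood test at a Benjamini-Hochberg adjusted p under 0.05. By that rule 65.5% of all genes tested were called, 32.9% higher and 32.6% lower, so 6 of 7 members is to be read against a high background. With library totals in place of TMM the calls over all genes went from 3681 higher and 3652 lower to 2071 higher and 5200 lower. With the bird as a block 68.9% of all genes were called, and the same 6 factors. The median log2 change of the members was -0.70, against 0.02 for all genes tested. In 6 of 7 members the 2 stages did not overlap in CPM, which was the case for 43.5% of all genes tested (20.7% higher and 22.8% lower in F5). Without overlap these 6 had to move one way in 6 of 6 birds, so that is no separate result. Of all genes tested, 30.3% moved upwards and 31.8% downwards in 6 of 6 birds.

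FOXL2, the forkhead factor, was the member with the largest fall. Its level before recruitment was 264 CPM at the lowest, 283 at the median and 401 at the highest, and in F5 it was 85.9, 119 and 171 CPM. Every F5 follicle lay below every Pre-recruitment follicle. The fall was 2.49-fold, from 299.6 ± 52.6 to 121 ± 29.9 CPM (SD, n = 6), with a log2 change of -1.31 (SE 0.16, 95% interval -1.65 to -0.98, edgeR adjusted p = 5.78e-06). The follicle of bird 5826 was the highest of its stage both before recruitment and in F5. Within birds the log2 change ran from -1.62 to -1.03. In the RefSeq annotation of another build, FOXL2 overlaps PIK3CB, a kinase gene, and strand is not given for these libraries, so the genes could share reads. GATA4 and NR2F2 each overlap an uncharacterised non-coding gene there, and GATA6, WT1 and NR5A1 overlap none. PIK3CB measured 45.4 ± 6.46 and 53.3 ± 7.01 CPM (SD, n = 6; edgeR adjusted p = 0.065).

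GATA4 fell by almost the same factor, with levels less spread within each stage. It measured 361 CPM at the lowest, 420.0 at the median and 512 at the highest before recruitment, against 157, 169 and 208 CPM in F5. The stages stood far apart, with the lowest Pre-recruitment follicle well above the highest F5 follicle. Its log2 change was -1.25 (SE 0.096, 95% interval -1.46 to -1.04, edgeR adjusted p = 1.34e-07), a 2.38-fold fall. The fall was deepest in bird 5802, at -1.65 within that bird, and it was between -1.38 and -1.09 in the others.

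WT1 fell 2.0-fold. Its CPM was 91.8 at the lowest, 123 at the median and 151 at the highest before recruitment, and 44.4, 59.5 and 78.5 in F5. The gap between the stages was narrow, since the lowest Pre-recruitment values, of birds 5810 and 5802, came close to the F5 value of bird 5817. The log2 change was -1.0 (SE 0.15, 95% interval -1.32 to -0.67, edgeR adjusted p = 5.40e-05), and all 6 birds were lower in F5. WT1 is also made by the surface epithelium in other vertebrates. Of 4 tested surface epithelium markers, 2 rose and 1 fell in F5, and their sum went from 479 to 859 CPM before recruitment to 897 to 1281 CPM in F5. KRT7 made up most of that sum, with means of 437 and 884 CPM. EPCAM, the marker that fell, did so 19.5-fold (edgeR adjusted p = 3.15e-06).

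GATA6, the paralog of GATA4, fell 1.62-fold. It stood at 40.5 CPM at the lowest, 51.0 at the median and 55.7 at the highest before recruitment, and at 20.01, 30.6 and 40.2 CPM in F5. The highest F5 value, in bird 5835, lay just below the lowest Pre-recruitment value, in bird 5840. The log2 change was -0.70 (SE 0.15, 95% interval -1.01 to -0.39, edgeR adjusted p = 7.96e-04). The depth of the fall varied between birds, with within-bird log2 changes of -1.30 in bird 5802, -1.03 in 5810 and -0.98 in 5817, and between -0.47 and -0.30 in the other birds.

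**Figure D1:**
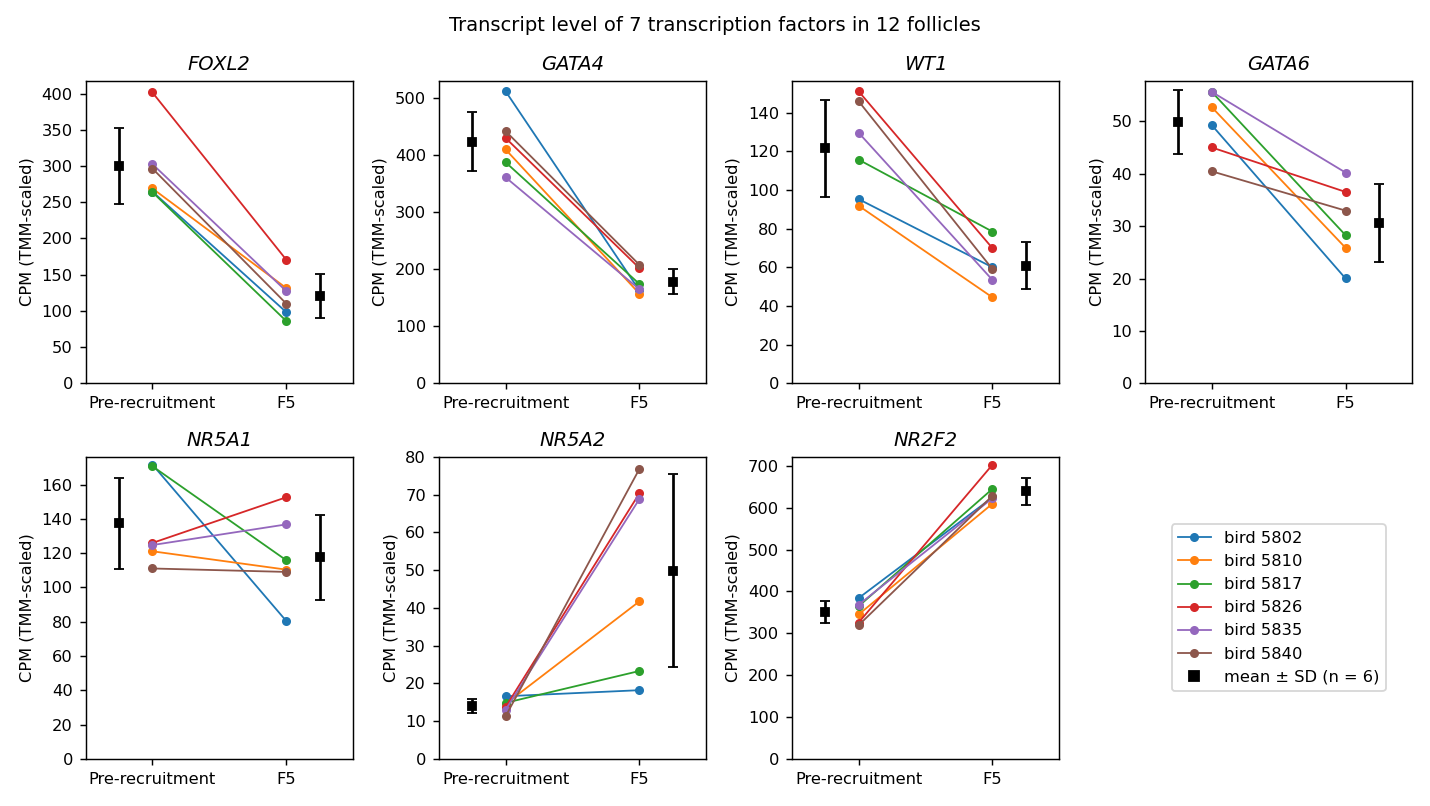
Level of each factor in CPM (TMM-scaled) in the 12 follicles, with a line joining the Pre-recruitment and F5 follicle of each bird and black squares for the mean ± SD (n = 6). FOXL2, GATA4, WT1 and GATA6 descend and NR2F2 ascends in 6 of 6 birds, NR5A1 lines cross, and NR5A2 fans out from 11.3 to 16.6 CPM before recruitment to 18.2 to 76.8 CPM in F5.

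NR5A1, the first of the paired nuclear receptors, showed no called change. It measured 111 CPM at the lowest, 125 at the median and 172 at the highest before recruitment, and 80.5, 113 and 153 CPM in F5. The stages overlapped widely. The log2 change was -0.23 with a 95% interval of -0.55 to 0.09 (SE 0.15, edgeR adjusted p = 0.195), so a fall of up to 1.46-fold lies within the interval. NR5A1 was lower in F5 in 4 of 6 birds, with a within-bird log2 change of -1.09 in bird 5802 and 0.28 in bird 5826. Scaling by library totals alone moves the median of all genes to -0.21, and on that scale NR5A1 was called lower (log2 change -0.45, edgeR adjusted p = 0.0134).

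NR5A2 rose 3.56-fold and was the member whose level varied most between F5 follicles. Before recruitment it was 11.3 CPM at the lowest, 14.1 at the median and 16.6 at the highest. In F5 it was 18.2 CPM in bird 5802, 23.3 in 5817, 41.7 in 5810, 68.8 in 5835, 70.3 in 5826 and 76.8 in 5840. All F5 follicles were above all Pre-recruitment follicles, but in bird 5802 the difference between its follicles was small (within-bird log2 change 0.13), while in bird 5840 it was 2.76. The log2 change of the stage was 1.83 (SE 0.32, 95% interval 1.15 to 2.52, edgeR adjusted p = 2.00e-04). Of the 11195 genes tested, 70 had a higher log2 change. With the bird as a block, which pairs the follicles, the log2 change of NR5A2 was 1.65 (edgeR adjusted p = 0.0087). The SD was 12.9% of the mean before recruitment and 51.4% in F5, against medians of 11.7% and 12.3% over all genes tested. In the RefSeq annotation of another build NR5A2 overlaps KIF14, a mitotic kinesin gene, which fell 1.52-fold (edgeR adjusted p = 0.00733).

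NR2F2 rose 1.82-fold and was the steadiest of the 7. It measured 319 CPM at the lowest, 355 at the median and 384 at the highest before recruitment, against 609, 626 and 703 CPM in F5. The stages were clearly apart. Its log2 change was 0.86 (SE 0.065, 95% interval 0.72 to 1.0, edgeR adjusted p = 1.12e-07), and within-bird changes ran from 0.70 to 1.11. The SD was 7.26% of the mean before recruitment and 5.21% in F5, and 92.4% of all genes tested varied more between F5 follicles. Between the stages 6 of 7 stromal and 8 of 8 smooth muscle markers were also called higher in the main fit, as were 32.9% of all genes tested. Of these markers, PDGFRA lost its call in 9 and DES in 13 of 23 alternatives. The part of stroma and smooth muscle in the rise of NR2F2 was not tested. NR2F1, its close paralog among the COUP receptors, rose 1.43-fold (34.2 ± 3.58 before recruitment, 49.1 ± 6.67 CPM in F5; SD, n = 6; edgeR adjusted p = 2.98e-04).

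**Figure D2:**
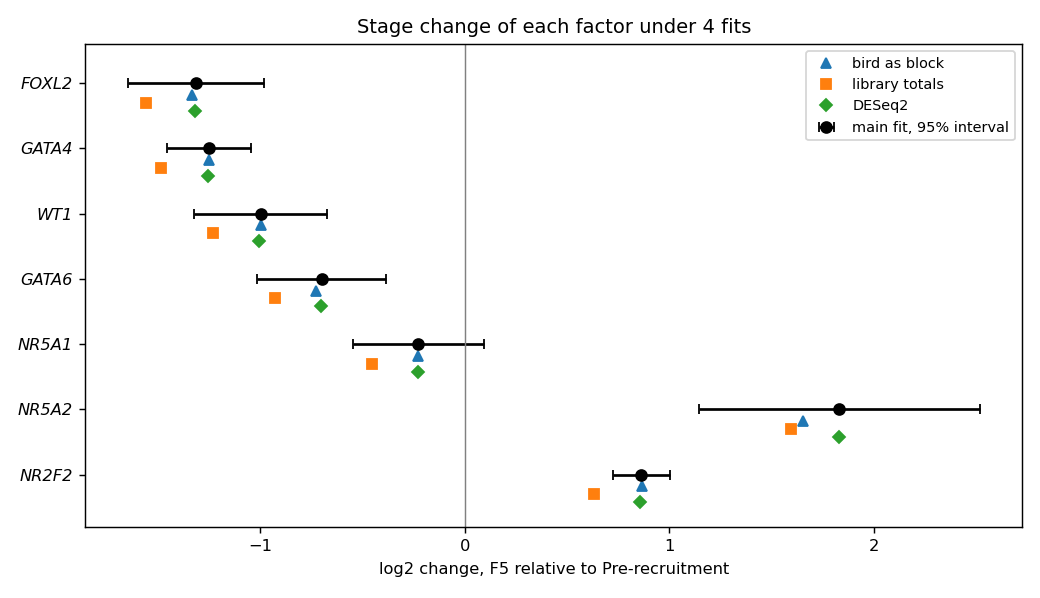
Log2 change of each factor from Pre-recruitment to F5 (x axis; black points with 95% interval from edgeR) and the same value with the bird as a block, with library totals in place of TMM and with DESeq2. Points left of 0 are lower in F5. With library totals every point moves to the left, and NR5A1 goes from -0.23 to -0.45.

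Whether 2 factors changed differently was tested on the log2 ratio of their counts within each library, a quantity from which depth and scaling cancel. There were 5 ratios, each tested by an exact two-sided permutation test over the 924 assignments of libraries to stages, with Benjamini-Hochberg adjustment over the 5. The absolute height of a ratio depends on gene lengths, and its change does not. NR5A2 gained on its paralog NR5A1 in 6 of 6 birds, the ratio rising 3.66-fold from a mean log2 of -3.28 ± 0.16 to -1.41 ± 0.70 (SD, n = 6; adjusted exact permutation p = 0.00541). Every F5 ratio was above every Pre-recruitment ratio. NR2F2 gained on FOXL2 by 4.59-fold, from 0.24 ± 0.31 to 2.44 ± 0.32 (SD, n = 6; adjusted exact permutation p = 0.00541), again in 6 of 6 birds and with no overlap. For both ratios, the unadjusted exact permutation p of 0.00216 is the smallest that this design can give. For NR2F2 to FOXL2 that outcome was fixed beforehand. Every F5 follicle was above every Pre-recruitment follicle for NR2F2 and below every one for FOXL2. Its p values, over libraries or within birds, therefore add nothing to the calls of the 2 genes.

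The paralogs GATA4 and GATA6 differed less clearly. The log2 ratio of GATA6 to GATA4 went from -3.09 ± 0.31 to -2.57 ± 0.32 (SD, n = 6), 1.44-fold higher in F5 and higher in 6 of 6 birds, with overlapping stages (adjusted exact permutation p = 0.0289). That call was lost in 11 of the 18 fits that left out a bird or a library. The adjusted exact permutation p was 0.0661 without bird 5810, 0.0529 without 5817, 0.106 without 5826 and 0.0794 without 5840. It was 0.0649 without the Pre-recruitment library of 5802 or of 5840 and 0.0613 without that of 5826. It was 0.0541 without the F5 library of 5810 or of 5817, 0.0613 without that of 5826 and 0.0685 without that of 5835. The falls of GATA4 and WT1 were each set against that of FOXL2, and neither difference passed the test. The log2 ratio of GATA4 to FOXL2 changed by 0.08 (adjusted exact permutation p = 0.658) and that of WT1 to FOXL2 by 0.34 (adjusted exact permutation p = 0.208), with stages that overlapped in both. When the same 5 ratios were tested by exact sign changes within birds, which pairs the follicles and cannot go below p = 0.0312, the NR5A2, GATA6 and NR2F2 ratios each had an adjusted p of 0.0521.

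**Figure D3:**
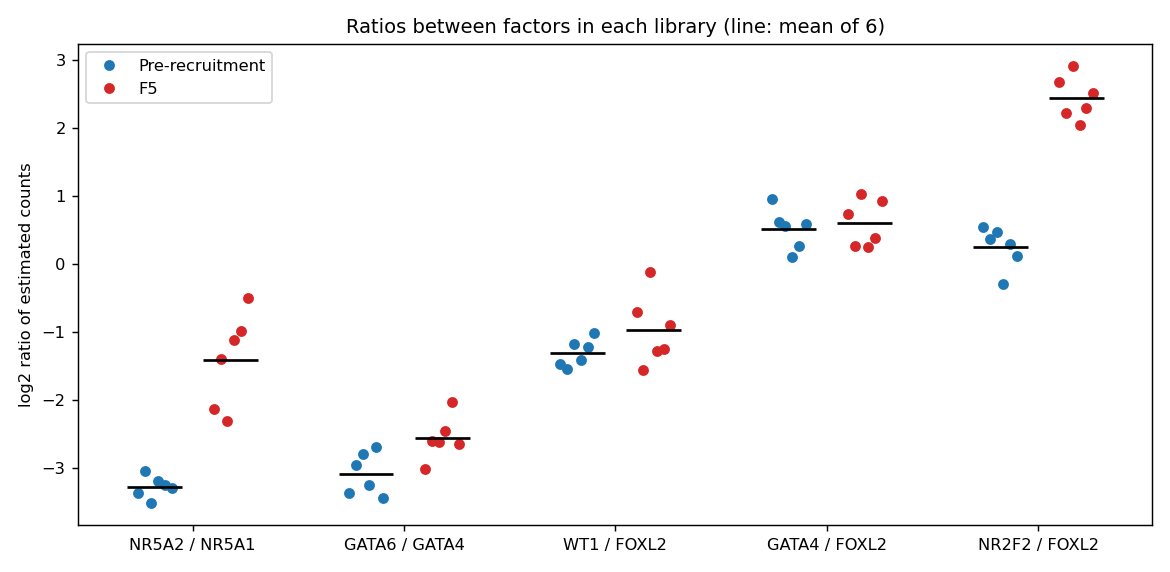
Log2 ratio of estimated counts for 5 pairs of factors (x axis) in each library, blue for Pre-recruitment and red for F5, with a black line at the mean of 6. The stages separate for NR5A2 to NR5A1 and for NR2F2 to FOXL2, and they overlap for the other pairs.

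Whether the factors varied together across hens could hardly be tested with 6 follicles a stage. Among the 21 pairs of factors in each stage (42 relations, 6 libraries each), none passed after adjustment by Pearson's r or Spearman's rho (lowest adjusted exact permutation p = 0.467 and 0.565). A lone relation could not have passed, since even a perfect one would have an adjusted exact permutation p of 0.0583 for r and 0.117 for rho. The highest r was that of GATA6 with NR5A1 among F5 follicles (r = 0.90, exact permutation p = 0.0208, and rho = 0.77, exact permutation p = 0.103), which was r = 0.71 without the 2 libraries farthest from the median. The highest rho was that of WT1 with NR2F2 in F5 (0.89, exact permutation p = 0.0333). Bird 5802 had the lowest F5 value of GATA6, NR5A1 and NR5A2 alike.

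For each factor, the 3 genes with the most similar pattern were taken by Pearson's r of log2 CPM after subtraction of each stage mean, over 12 libraries and 9491 candidate genes. These r values are the highest of many and are given as a description. The closest matches overall belonged to NR5A2. They were TMEM117, a transmembrane protein (r = 0.99), PLCG1, a phospholipase of growth factor signalling (r = 0.98), and GALC, the lysosomal galactosylceramidase (r = 0.98). Among F5 follicles alone these r were 0.99 each, and before recruitment they were 0.75, 0.84 and 0.52. FOXL2 was followed by DUSP26, a phosphatase (r = 0.96), HDAC3, a histone deacetylase (r = 0.96), and ST7L (r = 0.93). The matches of GATA4 were GDPD5, TOM1L2 and DOCK5, with r from 0.88 to 0.89, and those of WT1 were STIL, PPFIBP2 and MAPK8IP3, with r from 0.92 to 0.93. GATA6 was followed by the alpha-globin gene HBAD (r = 0.94), PSMD11 and MBP, NR5A1 by SOX18, KPNA3 and SPIN1W, and NR2F2 by MTSS2, CHRM4 and EPHB3. HBAD is a red blood cell gene, and the summed level of the 3 tested blood markers ran from 71.1 to 180 CPM before recruitment and from 35.7 to 264 CPM in F5. Its part in the level of GATA6 was not tested.

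The genes that followed NR5A2 among hens did not all share its direction between stages. GALC was 13.8 CPM in the F5 follicle of bird 5802 and 17.6 CPM in that of 5817, below the 20.5 to 24.9 CPM of all Pre-recruitment follicles. It was 40.8 CPM in bird 5810 and 69.2 to 75.2 CPM in the other birds, where it exceeded all Pre-recruitment follicles. TMEM117 was lower in every F5 follicle, at 2.97 CPM in bird 5802, 4.78 in 5817, 10.3 in 5810 and 16.8 to 20.9 CPM in the other birds, against 44.1 to 61.6 CPM before recruitment. PLCG1 ranged from 25.2 CPM in bird 5802 to 58.9 CPM in bird 5835 among F5 follicles. In F5 the birds stood in much the same order for the 4 genes, which follows from choosing the 3 by their likeness to NR5A2.

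**Figure D4:**
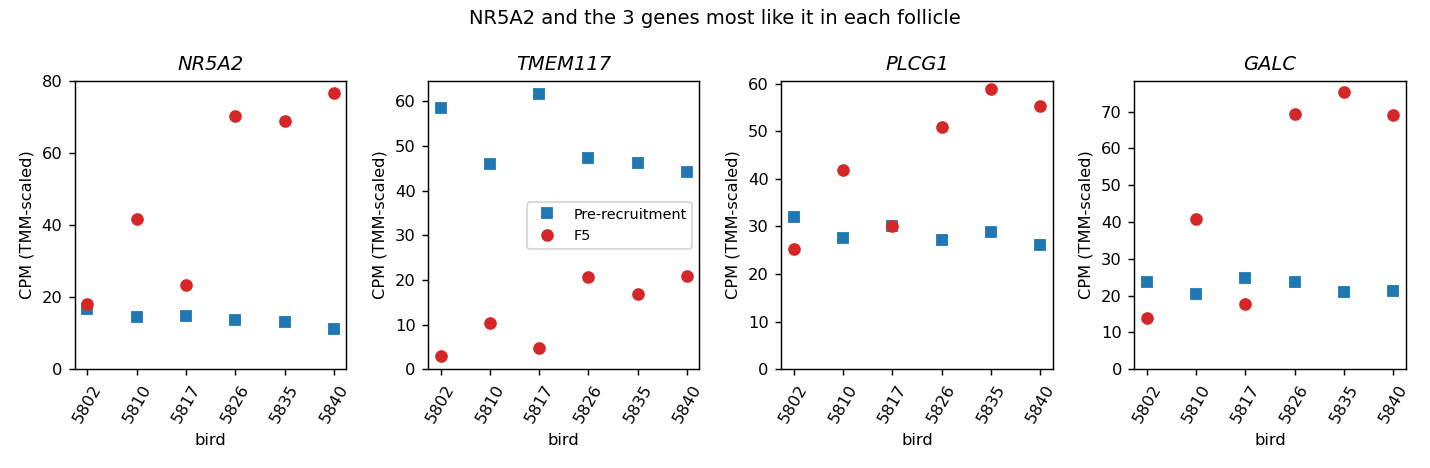
CPM of NR5A2, TMEM117, PLCG1 and GALC in the Pre-recruitment (blue squares) and F5 (red circles) follicle of each bird. The F5 follicles of birds 5802 and 5817 are the lowest of their stage in each panel, and GALC there lies below the Pre-recruitment values.

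Genes known, mainly in mammals, as targets of NR5A receptors were called higher in 4, lower in 4 and neither in 6 of 14 tested (median log2 change 0.16, or -0.07 with library totals), close to the 32.9% and 32.6% of all genes. With library totals 2 were higher, and 2 were lower without bird 5802, 5810 or 5817 or without the F5 library of 5802 or 5826. STAR, not called in the main fit, was called higher in 7 of 23 alternatives. Among them were the bird block (edgeR adjusted p = 0.0391) and DESeq2 (DESeq2 adjusted p = 0.0434). INHA was called higher in 2 of 23, without bird 5802 or without its Pre-recruitment library. HSD3B1, which makes progesterone from pregnenolone, rose 2.91-fold (edgeR adjusted p = 2.01e-06), and GJA1, a gap junction protein, 1.52-fold (adjusted p = 8.14e-04). FDX1, the electron donor of side-chain cleavage, rose 1.25-fold (adjusted p = 0.00129, but 0.39 with library totals). AMH, a hormone of small follicles, fell 22.8-fold, and NR0B1, a nuclear receptor that represses NR5A1, fell 2.04-fold (38.3 ± 6.02 against 18.8 ± 3.27 CPM; SD, n = 6; edgeR adjusted p = 9.21e-06). CYP17A1, the theca enzyme of androgen synthesis, fell 1.26-fold (adjusted p = 0.037), a call lost in 6 of 23 alternatives.

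The pair of F5 follicles with the lowest NR5A2 was also low for several of these targets, an observation made after the values were seen. The follicles of birds 5802 and 5817 held the 2 lowest values for 10 of the 14 targets (71.4%) and the 2 highest for 2 of them. NR0B2, 1 of the 10, was barely detected, at 0.15 CPM in bird 5802 and 0.33 CPM in 5817. The same pair was lowest for 17.1% of all genes tested, for 6 of 11 GATA targets, 3 of 7 NR2F2 targets, 4 of 8 granulosa markers and 4 of 8 leukocyte markers. Of other lists described below, it was lowest for 3 of 11 FOXL2 targets, 2 of 10 WT1 targets, 3 of 20 cofactors, 2 of 21 other gonadal factors and 1 of 7 paralogs. These lists share genes, and STAR, CYP11A1, CYP17A1, HSD3B1 and INHA are counted for both the NR5A and the GATA targets. Among the other birds the targets did not keep the order of NR5A2, and CYP19A1 was highest in bird 5802, at 3418 CPM, and lowest in 5840, at 1210.1 CPM. INHA, the inhibin alpha subunit, was 10.7 CPM in bird 5802 and 22.3 CPM in 5817, against 92.2 CPM in 5810 and 116 to 167 CPM in the other birds. HSD3B1 was 328 and 293 CPM in birds 5802 and 5817 and 418 to 554 CPM in the others. STAR, the mitochondrial cholesterol carrier, was 234 and 230.4 CPM there and 275 to 395 CPM elsewhere, whereas CYP11A1 differed little, at 588 and 569 CPM against 598 to 852 CPM. The summed granulosa markers were 233 and 221 CPM in these 2 follicles and 306 to 395 CPM in the others. Without INHA the sums were 222 and 198 CPM against 205 to 247 CPM. Sums of theca interna, smooth muscle, leukocyte and blood markers were lowest in the same pair as well. Those of stromal, endothelial, oocyte and surface epithelium markers were not. The endothelial sum was highest in bird 5817, at 857 CPM, and the surface epithelium sum was lowest in bird 5810, at 897 CPM. Theca interna markers summed to 1214 and 1165 CPM against 1284 to 1506 CPM, and smooth muscle markers to 13958 and 12292 CPM against 14867 to 25925 CPM. Gene by gene, the pair held the 2 lowest values for 1 of 6 theca interna markers (CYP17A1) and 1 of 8 smooth muscle markers (TAGLN). For blood markers it was 3 of 3. CYP17A1 makes up most of the theca interna sum and is itself 1 of the 10 targets counted above. Leukocyte markers summed to 533 CPM in both, against 570.4 to 779.6 CPM, and blood markers to 35.7 and 51.8 CPM, against 78.8 to 264 CPM. Their part in these low values was not tested.

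Targets of the factors that fell are set here against the 32.6% of all genes called lower and the 32.9% called higher. None of the target lists, here or for NR5A above, separates genes that a factor raises from genes that it lowers. The counts therefore cannot show whether targets followed their factor. Of 11 tested GATA targets, 4 fell and 1 rose (median log2 change 0.16, or -0.07 with library totals), but 3 rose without bird 5802 or its Pre-recruitment library. With the bird as a block or with DESeq2, 2 rose. The riser count was also 2 without bird 5810, its Pre-recruitment library or the F5 library of 5802, 5810 or 5817. INHBB, the inhibin beta-B subunit, fell 6.79-fold (154 ± 110.0 before recruitment, 22.7 ± 10.6 CPM in F5; SD, n = 6; edgeR adjusted p = 1.92e-04), and FSHR, the receptor of follicle-stimulating hormone, 1.62-fold. Of 11 FOXL2 targets, 4 fell and 1 rose (0 rose with library totals and 3 with the bird as a block). The FOXL2 riser count was 2 with DESeq2. It was also 2 without bird 5802, 5810 or 5840, without their Pre-recruitment libraries, or without the F5 library of 5802, 5810, 5817 or 5826. On the GATA and FOXL2 lists CYP17A1 lost its call in 6 of 23 alternatives, and CCND2 was called lower in 6. FST, the activin-binding follistatin, fell 8.22-fold and ESR2, the estrogen receptor beta, 1.58-fold from 16.6 ± 3.01 to 10.5 ± 3.25 CPM (SD, n = 6; adjusted p = 0.00943). The deacetylase SIRT1 rose 1.25-fold (adjusted p = 4.22e-04, but 0.19 with library totals). CYP19A1, the aromatase that FOXL2 activates in the chick gonad, measured 2167 ± 432 and 2427 ± 790.2 CPM (SD, n = 6; adjusted p = 0.522). Of 10 tested WT1 targets 6 fell and 1 rose (median log2 change -0.86). NTRK2, 1 of the 6, lost its call in 7 of 23 alternatives, among them the bird block (edgeR adjusted p = 0.0545). BCL2, not called in the main fit, was called lower in 3 of 23. IGF1R, the insulin-like growth factor receptor, fell 2.09-fold, and SPRY1, an inhibitor of growth factor signalling, rose 1.82-fold from 10.5 ± 0.783 to 19.1 ± 2.56 CPM (SD, n = 6; adjusted p = 4.11e-06). AMH, HSD3B1, CYP17A1, NR0B1, STAR, CYP19A1, CYP11A1, INHA, CCND2 and SOX9 stand on more than 1 target list. AMH, FST, INHBB, FSHR and INHA are also among the granulosa markers given above. The counts of these lists are therefore not independent of each other or of the granulosa markers. Of 7 tested NR2F2 targets, 2 rose and 3 fell, but 1 fell without bird 5802 or 5810 or without the F5 library of 5802 or 5826. STAR, also on this list, was called higher in 7 of 23 alternatives. The vessel ligand ANGPT1 rose 1.65-fold and the forkhead factor FOXC1 1.76-fold, while the cell cycle factor E2F1 fell 1.71-fold. CYP17A1 is the second of the 3 that fell, and the chemokine CXCL12 fell 1.35-fold, a call lost in 11 of 23 alternatives.

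On the list of partners of these factors, more genes were called lower than higher. Among 20 tested cofactors, 10 fell, 3 rose and 7 did not pass (median log2 change -0.25, or -0.49 with library totals), against 32.6% of all genes called lower and 32.9% called higher. The list was chosen with earlier results of these data known, so its counts are a description. NR0B1 and NR0B2 also stand on the NR5A target list, and NR0B1 on that of WT1. ZFPM1, a zinc finger partner of GATA factors, fell 1.94-fold (171 ± 13.9 before recruitment, 87.9 ± 12.0 CPM in F5; SD, n = 6; edgeR adjusted p = 6.84e-07). NCOA2, a coactivator of nuclear receptors, fell 2.17-fold from 66.7 ± 4.19 to 30.8 ± 4.37 CPM (adjusted p = 2.13e-07). CTNNB1, the beta-catenin that acts with NR5A receptors in mammals, rose 1.66-fold from 341 ± 40.8 to 565 ± 35.1 CPM (adjusted p = 4.13e-06). The coactivator NCOA3 rose 1.21-fold, a call lost in 11 of 23 alternatives. ZFPM2, 1 of the 10 that fell, lost its call in 8 of 23. Of those that did not pass, NRIP1 was called lower in 5 alternatives, CREBBP in 3, and PIAS1 and SMAD3 in 1 each.

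Other factors of the gonad went both ways, with 5 higher and 8 lower of 21 tested (median log2 change 0.09, or -0.14 with library totals). Of all genes tested, 32.9% were called higher and 32.6% lower, the background for these counts and for the paralogs below. The 5 became 2 with library totals, and 3 when bird 5817, 5826 or 5840 was dropped. It was also 3 when only the Pre-recruitment follicle of 5810, 5826 or 5840 was dropped, or only the F5 follicle of 5826 or 5840. Of the 8 that were lower, CBX2 and SOX8 each lost the call in 11 of 23 alternatives. EMX2, a homeobox factor needed to form the gonad, fell 1.84-fold (68.7 ± 4.59 before recruitment, 37.2 ± 3.37 CPM in F5; SD, n = 6; edgeR adjusted p = 1.54e-07). FOXO1, a forkhead factor of growing granulosa cells in the mouse, fell 2.64-fold. TCF21, a mesenchymal factor, rose 2.22-fold from 182 ± 31.5 to 404 ± 58.3 CPM (SD, n = 6; adjusted p = 2.87e-06), and the progesterone receptor PGR also rose 2.22-fold. Of 7 tested paralogs of the factors, 4 rose and 0 fell, or 2 and 1 with library totals, and 2 rose without bird 5826 or 5840. EGR1, a zinc finger factor related to WT1, rose 3.34-fold (adjusted p = 0.00132), and NR2F6 rose 1.15-fold but measured -0.03 on the log2 scale with library totals. GATA3 measured 121 ± 26.5 and 109.6 ± 22.2 CPM (SD, n = 6; adjusted p = 0.453).

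**Figure D5:**
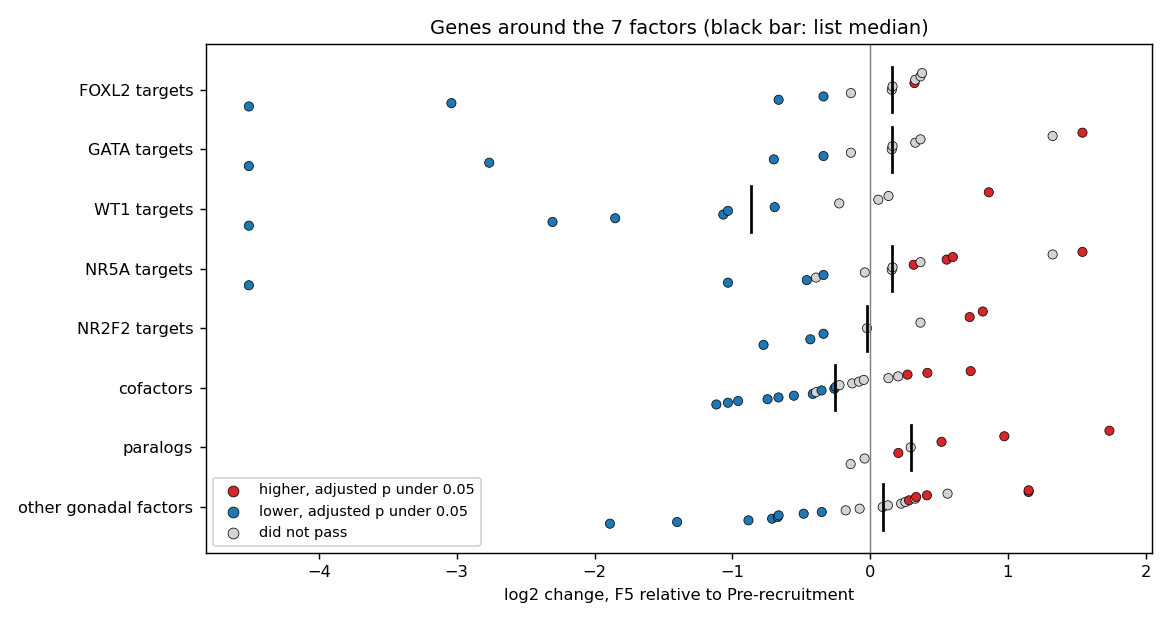
Log2 change from Pre-recruitment to F5 (x axis) of each tested gene in 8 lists around the factors, red where higher and blue where lower by edgeR's adjusted p, grey where the test was not passed, with a black bar at the list median. The median of the WT1 targets is -0.86, and that of the cofactors is -0.25.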

How the data were processed

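Poly-A RNA of 12 follicles was sequenced as paired reads of 100 bp, per the labels' protocols. Values deposited by the authors are estimated counts for each gene symbol, which they obtained with kallisto, per the labels. Kallisto 0.44.0 and bcl2fastq 2.19 appear in the submitters' processing notes, as do the builds GRCg6a and galGal6, with no role stated. The summing of transcripts to genes has no stated method. Values were already whole. A row with a blank name was left out (9.02% ± 0.515 of counts before recruitment and 6.6% ± 0.215 in F5; SD, n = 6).

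Genes passing filterByExpr (minimum count 10) were fitted with edgeR 4.0.16 in R 4.3.3, with TMM factors of 1.09 ± 0.0485 and 0.923 ± 0.0404 (SD, n = 6), stage as the only term, robust quasi-likelihood tests, two-sided, and Benjamini-Hochberg adjustment at 0.05 over all genes. DESeq2 1.42.0 was an alternative. Log2 CPM used a prior count of 2 and ratios a pseudocount of 0.5. Both follicles of a number come from 1 bird per the labels, and across genes their departures from the mean of the stage correlated at 0.13 to 0.39, against -0.30 to 0.30 for different birds. Chi-square over its degrees of freedom was at least 23.5 between libraries of a stage, so no library repeated another. The code was tested on simulated data.

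Named genes are the 7 factors, up to 3 risers and 3 fallers per list by adjusted p, and the 3 genes most like each factor. Members and lists (17 lists, 131 genes tested) were chosen with earlier results of these data known. Of the table's symbols, 11845 matched RefSeq of another build, GRCg7b, used for names and overlaps, so no coordinates are given. List genes absent from the table were not analysed here. Some genes that the rule would name are not reported here.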

Additional observations from a re-analysis of the deposited data

Results flagged for a closer look

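FOXL2 in the Pre-recruitment follicle of bird 5826 stood at 401 CPM, with the next follicle at 303 CPM, a gap that is wide for the range of 6 follicles. Chance flags about 1 in 20 groups, and 24 groups of values were looked at. Without that library the log2 change of FOXL2 was -1.24 (edgeR adjusted p = 9.41e-06).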

How the results depend on the processing

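The 6 called factors kept their direction and call under every alternative run: bird block, library totals, DESeq2, both other filters, and leaving out each bird or library. NR5A1 was called with library totals (-0.45). With the bird as a replicate block no call of a factor changed, and 7711 genes were called in place of 7333. Sign changes within birds gave the same ratio changes, 1.87 (NR5A2 to NR5A1), 0.52 (GATA6 to GATA4) and 2.20 (NR2F2 to FOXL2), with an adjusted exact p of 0.0521 each. Leaving out a bird or library gave log2 changes of -1.44 to -1.23 (FOXL2), -1.32 to -1.16 (GATA4), -1.10 to -0.92 (WT1), -0.80 to -0.60 (GATA6), -0.36 to -0.065 (NR5A1), 1.61 to 2.06 (NR5A2) and 0.79 to 0.90 (NR2F2), and 6750 to 7239 called genes. Ratio changes were 1.69 to 2.05 (NR5A2 to NR5A1), 0.42 to 0.61 (GATA6 to GATA4), 2.09 to 2.28 (NR2F2 to FOXL2), 0.17 to 0.46 (WT1 to FOXL2) and -0.0034 to 0.17 (GATA4 to FOXL2, the lowest without the F5 library of 5817). The cause of these shifts was not tested.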
